A study of Mus musculus with 71 samples.

Results

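The variable (V) segments of the mouse immunoglobulin light chains were followed across Pax5 genotypes in the bone marrow. A row of the expression tables was taken as a member when its gene name, or the GENCODE M21 name of its Ensembl gene number, began with Igkv (kappa) or Iglv (lambda). This gave 163 of the 25579 rows, namely 160 Igkv segments and 3 Iglv segments, of which 103 were annotated as V genes and 60 as V pseudogenes. The Igkv members lay between positions 67555497 and 70704177 of chromosome 6 in GRCm38. Their distance from Igkj1, the first joining segment, was under 1 Mb for 50 members, 1 to 2 Mb for 57 and over 2 Mb for 53. Of the Igkv members, 85 were oriented so that they join by inversion and 75 so that they join by deletion.

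Their expression came from sequenced poly(A) RNA of 31 samples in 14 groups, all sorted directly from the bone marrow of C57BL/6 mice, with 5 samples of Pax5(+/+) and 2 of each other group. The labels write D for the deletion sign ∆ used here, and give no age. The mice carried deletions of the octapeptide (Pax5(∆OP/∆OP)), of the partial homeodomain (Pax5(∆HD/∆HD)) or of both (Pax5(∆OP,HD/∆OP,HD)), or of the C-terminal regulatory domains CRD1 and CRD2, alone or together, on both alleles (Pax5(∆CRD1/∆CRD1), Pax5(∆CRD2/∆CRD2), Pax5(∆CRD1,2/∆CRD1,2)) or opposite a null allele (Pax5(∆CRD1/-), Pax5(∆CRD2/-), Pax5(∆CRD1,2/-)). In Vav-Cre Pax5(fl/fl) progenitors both Pax5 alleles were deleted by a Cre that is active throughout the haematopoietic system. A separate experiment, here called the Prd experiment, held Vav-Cre Pax5(fl/+), Vav-Cre Pax5(fl/fl) and Vav-Cre Pax5(Prd/fl), whose Prd allele encodes only the DNA-binding paired domain. The ∆OP allele was made in embryonic stem cells and the other domain deletions by CRISPR/Cas9 in zygotes.

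The sorting differed between groups. One pro-B cell gate was used for Pax5(+/+) and for both single deletions opposite a null allele, Pax5(∆CRD2/-) and Pax5(∆CRD1/-). Another gate was used for Pax5(∆CRD1,2/-) and for the progenitors of Vav-Cre Pax5(fl/fl) mice, and the same second definition is given for Pax5(∆CRD1,2/∆CRD1,2). The labels of Vav-Cre Pax5(Prd/fl) and of Vav-Cre Pax5(fl/fl) in the Prd experiment name an alternative gating. For all of these groups the gate and the genotype cannot be told apart, while Pax5(∆CRD1/-) shared the gate of Pax5(+/+). The RNA samples of Pax5(∆CRD1,2/∆CRD1,2) are labelled as pro-B cells, so their gate is not certain. The remaining groups are also labelled as pro-B cells, and these labels name no gate. Samples were read at 50 nt (Pax5(+/+) replicates 1, 2 and 5, Pax5(∆CRD1/∆CRD1) and Vav-Cre Pax5(fl/fl)) or 100 nt (all others), and reads were trimmed to 50 bases before alignment. The tests carried read length as a term where both lengths occurred. Thus the 100-nt mutants were in effect compared with Pax5(+/+) replicates 3 and 4, and the 50-nt mutants with replicates 1, 2 and 5. Depth was 10018810 to 43785235 reads assigned to genes, and between 95 and 2880 of them fell on all 163 members together.

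Light chains are assembled by the Rag1 and Rag2 recombinase, which joins a V segment to a J segment at recombination signals, mostly after pro-B cells with a functional heavy chain have become pre-B cells. Segments not yet joined can be transcribed from their own promoters, and such germline transcripts accompany the opening of a locus for recombination. V promoters typically hold an octamer that is bound by the POU factors Oct1 and Oct2, encoded by Pou2f1 and Pou2f2. Pax5 is the B cell commitment factor and binds DNA through its paired domain. The counts here are per gene, so that reads of germline transcripts and of joined light-chain RNA cannot be separated for a given V segment.

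The promoters and recombination signals of 6 segments are shown to place the values that follow on sequence. Igkv4-63, Igkv4-73 and Igkv9-124 were higher in several comparisons, Igkv1-88 was the highest member in most samples, Igkv1-117 was lower in several comparisons and Iglv3 was the lambda segment with the most calls. Stretches of 70 bases were read from GRCm38.p6 by the GENCODE M21 annotation and are given from 5′ to 3′ on the strand of the gene, with the octamer ATTTGCAT, or its nearest match with 1 mismatch, in capitals. They cover chr6:69378530-69378599 (-) for Igkv4-63, chr6:69198174-69198243 (-) for the pseudogene Igkv4-73, chr6:67942582-67942651 (-) for Igkv9-124, chr6:68863072-68863141 (-) for Igkv1-88, chr6:68120952-68121021 (+) for Igkv1-117 and chr16:19241727-19241796 (-) for Iglv3.
Igkv4-63: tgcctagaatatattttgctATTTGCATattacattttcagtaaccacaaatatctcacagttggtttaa
Igkv4-73: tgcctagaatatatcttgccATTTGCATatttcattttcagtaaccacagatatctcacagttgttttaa
Igkv9-124: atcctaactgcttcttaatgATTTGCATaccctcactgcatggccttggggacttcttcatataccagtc
Igkv1-88: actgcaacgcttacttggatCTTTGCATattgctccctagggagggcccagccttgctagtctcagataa
Igkv1-117: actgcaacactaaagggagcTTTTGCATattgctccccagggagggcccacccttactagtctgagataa
Iglv3: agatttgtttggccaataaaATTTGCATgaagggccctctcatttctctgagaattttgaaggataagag

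Igkv4-63, Igkv4-73, Igkv9-124 and Iglv3 held the exact octamer. Igkv1-88 differed from it by A1C and Igkv1-117 by A1T, counted from 1 at the 5′ end of the octamer. Downstream of the V exons of the same members lay the recombination signals, in which the heptamer and the nonamer are in capitals and the spacer is in lower case.
Igkv4-63: CACAGTGatacagactggaAAAAAACCT
Igkv4-73: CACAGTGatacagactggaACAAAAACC
Igkv9-124: CACAGTGatacaaattataACATAAACC
Igkv1-88: CACAGTGatttataccccaACAAAAACT
Igkv1-117: CACAGTGatacagaccctaACAAAAATA
Iglv3: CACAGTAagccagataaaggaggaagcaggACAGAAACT

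All 5 Igkv signals began with the consensus heptamer CACAGTG, including that of the pseudogene Igkv4-73. The 28 bases after the annotated end of another pseudogene, Igkv13-78-1 at chr6:69051817-69051844 (+), read TTTGTAGtttcatattcttTTCTATTTT when split in the same way, without that heptamer.

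Most members were expressed at low levels. Of the 163 members, 111 exceeded 1 TPM (transcripts per 1000000) in at least 1 sample, 22 were at 0 TPM in all 31 samples and 31 exceeded 10 TPM in at least 1. The 111 comprised 94 V genes and 17 pseudogenes. Igkv1-88 was the highest member in 22 of 31 samples. The other samples were led by Igkv19-93 (Pax5(+/+) replicate 2), Igkv1-135 (Pax5(∆OP/∆OP) replicate 1 and Pax5(∆HD/∆HD) replicate 1), Igkv14-126 (both Pax5(∆OP,HD/∆OP,HD) samples), Igkv12-44 (Pax5(∆CRD1/∆CRD1) replicate 1), and by the lambda segments Iglv1 and Iglv2. The 5 Pax5(+/+) samples summed to 224, 330, 55.8, 174 and 101 TPM over all members (177 ± 107, SD, n = 5). The sum thus varied widely among control pro-B cells, and Pax5(+/+) replicate 3 had reads on 23 members only.

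Segments of one family share sequence, and only reads with 1 place in the genome were counted. Over the exons of the members, a median of 85.6% of 50-base windows was unique on chromosomes 6 and 16, and 24 members were under 50%. All windows of Igkv1-88, Igkv13-78-1 and Iglv3 were unique, as were 76.8% of those of Igkv4-63, 75.8% of those of Igkv4-73 and 65.9% of those of Igkv9-124. Levels of the less unique members are therefore too low by an unknown amount in every sample.

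The sum over the segments split along the locus. In Pax5(+/+) pro-B cells, Igkv segments under 1 Mb from Igkj1 summed to 8.38 to 56.6 TPM (median 36.7), those at 1 to 2 Mb to 24.7 to 100.1 TPM and those over 2 Mb to 12.3 to 163 TPM. Under 1 Mb, the sums were 4.88 and 2.65 TPM in Pax5(∆CRD1/-), 4.23 and 9.75 TPM in Pax5(∆CRD1,2/-) and 2.54 and 6.40 TPM in Vav-Cre Pax5(fl/fl). At 1 to 2 Mb, by contrast, they were 120 and 99.4 TPM, 295 and 231 TPM, and 102 and 327 TPM in the same groups. Pax5(∆CRD1,2/-) and Vav-Cre Pax5(fl/fl) lay above all Pax5(+/+) samples at 1 to 2 Mb, and Pax5(∆CRD1/-) and Vav-Cre Pax5(fl/fl) lay below them all under 1 Mb. Pax5(∆CRD1,2/∆CRD1,2) had 27.6 and 15.8 TPM under 1 Mb, within the Pax5(+/+) range, and 348 and 288 TPM at 1 to 2 Mb, above it. Over 2 Mb, all of these groups lay within the Pax5(+/+) range. The sums there were 70.8 and 57.4 TPM in Pax5(∆CRD1/-) and 124 and 71.4 TPM in Pax5(∆CRD1,2/-). They were 132 and 115 TPM in Pax5(∆CRD1,2/∆CRD1,2) and 55.6 and 117 TPM in Vav-Cre Pax5(fl/fl). In bulk samples, fewer expressing cells and less RNA per cell cannot be told apart.

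**Figure D1:**
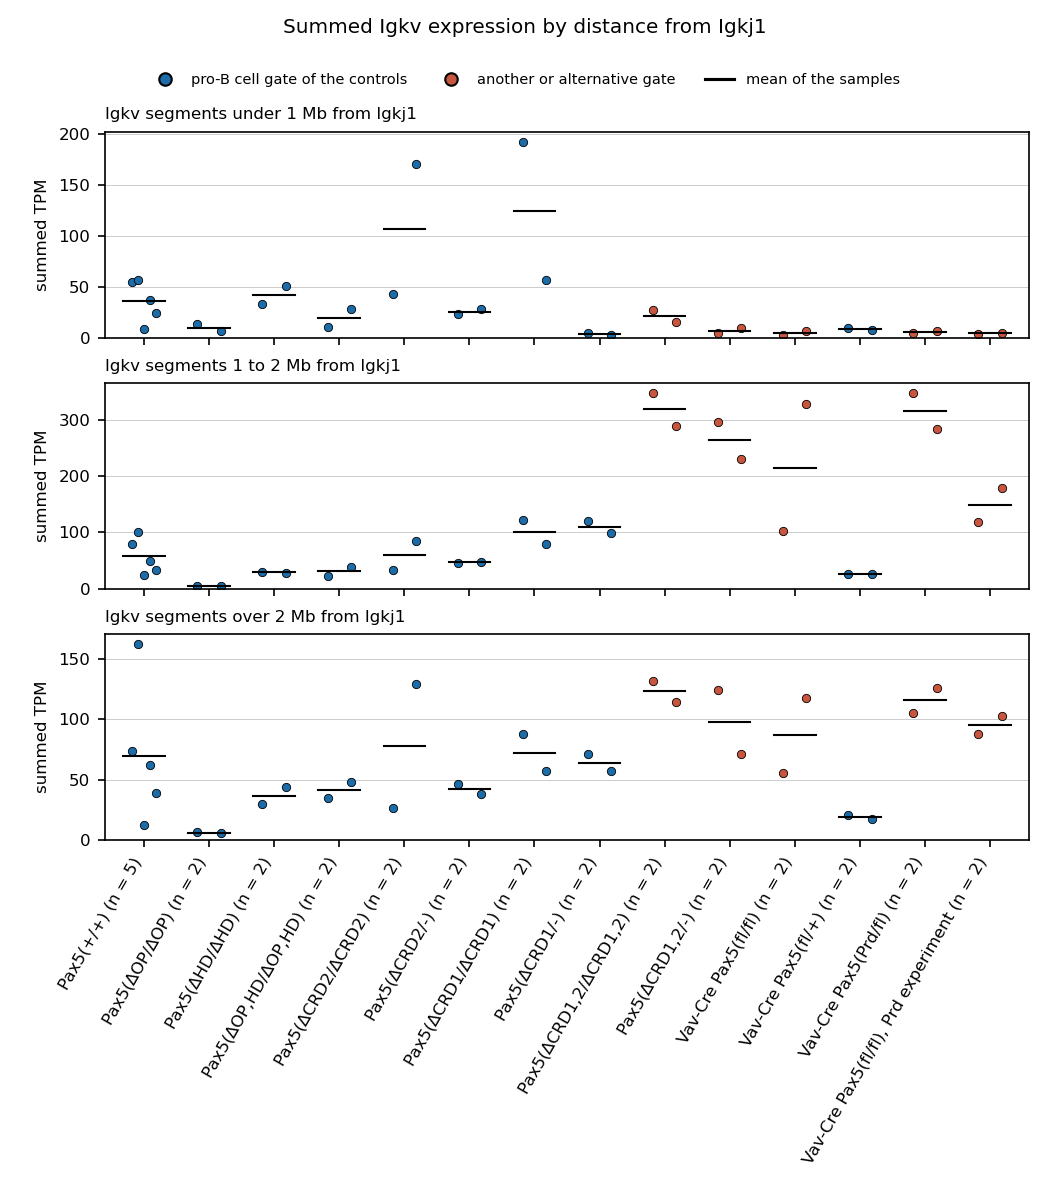
Summed TPM of Igkv segments under 1 Mb, at 1 to 2 Mb and over 2 Mb from Igkj1 (3 panels) in each of the 31 samples. Points are samples and bars are group means. Blue points are groups taken as sorted by the pro-B cell gate of the controls, stated only for Pax5(+/+), Pax5(∆CRD1/-) and Pax5(∆CRD2/-). Red points are groups taken as sorted by another or the label's alternative gate. The red groups lie at 102 to 348 TPM at 1 to 2 Mb, above Pax5(+/+), and at 2.54 to 27.6 TPM under 1 Mb, where 3 of their 10 samples lie within the Pax5(+/+) range.

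As a share of the summed Igkv TPM, segments under 1 Mb made up 17.7 to 26.1% in Pax5(+/+). The share was 2.49 and 1.66% in Pax5(∆CRD1/-), 5.44 and 3.76% in Pax5(∆CRD1,2/∆CRD1,2), 0.998 and 3.13% in Pax5(∆CRD1,2/-), and 1.58 and 1.42% in Vav-Cre Pax5(fl/fl). In the Prd experiment it was 17.5 and 15.5% in Vav-Cre Pax5(fl/+), against 1.80 and 1.64% in Vav-Cre Pax5(fl/fl) and 1.09 and 1.72% in Vav-Cre Pax5(Prd/fl). All 12 samples of these mutant groups lay below all 7 samples of Pax5(+/+) and Vav-Cre Pax5(fl/+). Both samples of Pax5(∆CRD1/∆CRD1), with 47.8 and 29.6%, Pax5(∆CRD2/∆CRD2), with 41.5 and 44.2%, Pax5(∆OP/∆OP), with 51.5 and 38.3%, and Pax5(∆HD/∆HD), with 35.4 and 41.4%, lay above Pax5(+/+), and 1 sample of Pax5(∆OP,HD/∆OP,HD), with 15.8%, lay below it.

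The share of pseudogenes in the summed TPM of all members separated the same groups. It was 1.52 to 1.85% in Pax5(+/+), 14.02 and 14.7% in Pax5(∆CRD1/-), 10.9 and 10.3% in Pax5(∆CRD1,2/∆CRD1,2), 12.3 and 10.6% in Pax5(∆CRD1,2/-), and 22.6 and 11.2% in Vav-Cre Pax5(fl/fl). Vav-Cre Pax5(fl/+) had 4.29 and 4.87%, Vav-Cre Pax5(fl/fl) of the Prd experiment 15.9 and 13.1% and Vav-Cre Pax5(Prd/fl) 15.4 and 10.6%. Smaller rises over Pax5(+/+) were seen in both samples of Pax5(∆OP,HD/∆OP,HD) (7.95 and 4.76%), Pax5(∆CRD1/∆CRD1) (3.90 and 6.75%), Pax5(∆HD/∆HD) (5.74 and 3.23%) and Pax5(∆CRD2/-) (3.32 and 4.51%). Pax5(∆OP/∆OP) had 0 and 4.61%, and Pax5(∆CRD2/∆CRD2) had 1.93 and 0.66%. The Igkv4 family, a large family located mainly in the middle of the locus, supplied 4.96 to 11.5% of the Igkv sum in Pax5(+/+) but 21.3 and 29.2% in Pax5(∆CRD1/-), 27.8 and 45.3% in Pax5(∆CRD1,2/-) and 28.8 and 24.0% in Vav-Cre Pax5(fl/fl). Other groups reached the same level, with 21.1 and 24.4% in Pax5(∆CRD1/∆CRD1) and with 1 sample each of Pax5(∆CRD2/-) (22.7%) and Pax5(∆OP,HD/∆OP,HD) (21.5%). No test was made on these sums and shares.

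With CRD1 deleted opposite a null allele, the segments called higher lay in the middle and distal locus. In Pax5(∆CRD1/-) pro-B cells, 14 of 100 members tested passed an adjusted p of 0.05 against Pax5(+/+), 11 higher and 3 lower, where 8.51% of all genes tested passed (3.85% higher and 4.66% lower). A member entered a test when it exceeded 1 TPM in at least 1 sample of the fit, so the tested members include some that entered only through the group in which they were high, and 52 of the 163 were tested in no comparison. The median difference was 0.79 over the tested members and 0.03 over all genes on the log2(TPM + 0.1) scale, the scale of every difference given below. This median, and those below for other 100-nt mutants against Pax5(+/+), rest on Pax5(+/+) replicates 3 and 4. Replicate 3 had reads on 23 members only, so a difference can be positive where the mean over all Pax5(+/+) samples is not lower. Igkv9-120, for example, had a difference of 2.52 with means of 0.94 TPM here and 1.09 TPM in Pax5(+/+). Igkv4-63 was at 0, 0, 0, 0.20 and 0 TPM in Pax5(+/+), and at 15.1 and 10.4 TPM in Pax5(∆CRD1/-). The groups did not overlap, and the difference was 6.19 ± 0.52 (SE; limma, adjusted p = 5.39e-05). Because Pax5(+/+) held 1 read of this segment in all, its fitted value depends on the pseudocount. The ratio of 122 to 1 reads, set to depth, was 264, with an exact 95% counting interval of 46.4 to 10498.

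The pseudogene Igkv4-73 was at 0, 0.54, 0, 0 and 0 TPM in Pax5(+/+) and at 3.30 and 4.502 TPM in Pax5(∆CRD1/-), a difference of 5.31 ± 0.76 (limma, adjusted p = 0.00141). Igkv9-124, a functional segment over 2 Mb from Igkj1, rose from 4.39, 4.61, 0, 2.39 and 3.68 TPM to 22.2 and 12.7 TPM (5.08 ± 1.09, limma, adjusted p = 0.0149). The size of this difference rests on Pax5(+/+) replicate 3, which had 0 reads of the segment. It was 2.76 without that sample (limma, adjusted p = 0.026) and 7.40 without replicate 4, while the group means were 3.01 and 17.4 TPM. The call was lost without either Pax5(∆CRD1/-) sample (limma, adjusted p up to 0.139). The members at 1 to 2 Mb contributed 7 of the 11 higher calls (35 tested, median 2.33) and those over 2 Mb the other 4 (32 tested). Of the 30 tested members under 1 Mb, none was higher and 2 were lower, Igkv8-34 (-3.89 ± 0.70) and Igkv3-4 (-2.95 ± 0.61, adjusted p = 0.0129), with a class median of -1.30. Igkv3-4 had 0 reads in Pax5(∆CRD1/-) against 41 in Pax5(+/+), at least 6.82-fold lower against a floor of 3 reads over the group. This bound pools all 5 Pax5(+/+) samples, as do the other read ratios and bounds of CRD genotypes and Vav-Cre Pax5(fl/fl) against Pax5(+/+). Replicates 3 and 4, on which the limma difference rests, held 5 and 2 of the 41 reads. The remaining lower call, Igkv10-96, lay over 2 Mb from Igkj1 (-3.71 ± 0.99, limma, adjusted p = 0.0415). Of the 14 calls, 13 had groups that did not overlap. edgeR's quasi-likelihood test on the recovered reads gave 8 calls, 7 higher and 1 lower, with none under 1 Mb in either direction. Its lower call, Igkv1-110, also lay over 2 Mb from Igkj1.

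With CRD1 and CRD2 both deleted, more of the middle segments were called. Pax5(∆CRD1,2/-) had 26 calls among 100 members tested, 24 higher and 2 lower, where 20.2% of all genes passed (7.96% higher, 12.3% lower), and the median was 1.10 against -0.04 over all genes. At 1 to 2 Mb, 17 of 35 tested members were higher and none lower (median 3.26). Under 1 Mb, none of 30 was higher and 1, Igkv3-4, was lower (median -1.26), and edgeR called none there. Igkv4-63 reached 40.1 and 41.1 TPM, the highest values of this segment in any sample, with a difference of 7.88 ± 0.52 (limma, adjusted p = 4.66e-06). Its reads numbered 465 against 1, a ratio of 840 with a counting interval of 150 to 33245. The Igkv4 family held 13 of the 24 higher calls (29 tested) and pseudogenes held 8 (14 tested).

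Pax5(∆CRD1,2/-) and Pax5(∆CRD1/-) were also compared with each other. No member passed, where 2.17% of all genes did (0.594% higher, 1.58% lower), although 8 members had an unadjusted p below 0.05 and edgeR called 1. The median difference was 0.48 over 100 members. Igkv4-63, for example, was 40.1 and 41.1 TPM in Pax5(∆CRD1,2/-) against 15.1 and 10.4 TPM in Pax5(∆CRD1/-). Both groups share the Pax5(+/+) controls in the comparisons above, so their calls against Pax5(+/+) are given side by side and not as an overlap.

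The deletion of both domains on both alleles gave the most calls against Pax5(+/+) among the domain deletions. In Pax5(∆CRD1,2/∆CRD1,2), 35 of 108 members tested passed, 34 higher and 1 lower, where 22.2% of all genes passed (8.93% higher, 13.3% lower), with a median of 2.27 against -0.00. At 1 to 2 Mb, 25 of 38 members were higher (median 4.27), and the Igkv4 family supplied 21 of 31 tested. Igkv1-88, the leading member in most samples, was at 26.4, 24.9, 13.1, 19.6 and 14.3 TPM in Pax5(+/+) and at 108 and 99.97 TPM here, without overlap (2.69 ± 0.32, limma, adjusted p = 0.00034). Igkv13-78-1 had 0 reads in all 5 Pax5(+/+) samples and 9.97 and 11.2 TPM here, at least 40.8-fold higher. Under 1 Mb, 1 of 34 was higher, Igkv18-36 (3.55 ± 0.92, adjusted p = 0.0212), and the median was 0.03. The lower member was Igkv1-110, which lies over 2 Mb from Igkj1. Without either of the mutant samples 13 members passed, and without Pax5(+/+) replicate 3, 16 passed.

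The single deletion of CRD1 on both alleles had few calls. In Pax5(∆CRD1/∆CRD1), 6 of 108 members passed, all higher, where 5.98% of all genes passed (2.69% higher, 3.29% lower), and the median was 0.85 against -0.06. These were Igkv4-63 (2.59 and 1.98 TPM, 4.56 ± 0.88, limma, adjusted p = 0.0152), Igkv4-73 (2.78 and 3.06 TPM), Igkv13-78-1 (1.66 and 1.00 TPM), Igkv14-126-1, Igkv14-118-2 and Igkv4-74. All 6 members lay above Pax5(+/+) in both samples. The difference from Pax5(∆CRD1/-), which was read at another length, was not tested. Of 34 tested members under 1 Mb, none was called by limma and 1 by edgeR, and the class median was 0.84. Replicate 1 stood apart through Igkv12-44, a functional segment under 1 Mb, at 50.3 TPM against 9.43 TPM in replicate 2 and 0.25 to 1.67 TPM in Pax5(+/+), which did not pass (4.53 ± 1.45, limma, adjusted p = 0.113).

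In the absence of Pax5 altogether, proximal segments were called lower and middle segments higher. Vav-Cre Pax5(fl/fl) progenitors had 39 calls among 100 members, 14 higher and 25 lower, where 31.7% of all genes passed (17.1% higher, 14.6% lower). Of the 39 calls, 21 had groups that did not overlap when all 5 Pax5(+/+) samples were considered. Of the lower calls, 20 lay under 1 Mb (30 tested, none higher, median -3.24) and 5 over 2 Mb. Of the higher calls, 11 lay at 1 to 2 Mb (35 tested, none lower, median 1.85) and 3 over 2 Mb. The median over the tested members was -0.52 against 0.01 over all genes, and it changed sign to 0.31 over 84 members when 16 members with too few reads for a fold were left out and 24 others, with 0 reads in a group, were set to their bounds.

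The lower calls rest on few reads. The Vav-Cre Pax5(fl/fl) libraries held 472 and 666 reads on all members, and replicate 2 was the shallowest of all libraries. In 22 of the 25 lower calls both libraries had 0 reads, against 10 to 142 reads in Pax5(+/+), which bounded the decrease at 1.12-fold to 8.59-fold or more. edgeR called 14 members, 8 higher and 6 lower, and under 1 Mb its lower calls were Igkv3-4 and Igkv6-32. Igkv3-4 was at 2.39, 2.396, 1.12, 0.39 and 4.16 TPM in Pax5(+/+) and at 0 in both Vav-Cre Pax5(fl/fl) samples (-4.90 ± 0.56, limma, adjusted p = 6.36e-05), at least 2.57-fold lower. Igkv6-32 was at 3.29, 3.14, 0, 0.19 and 1.64 TPM and again at 0 in both (-4.74 ± 0.79, limma, adjusted p = 0.000912).

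Against this, Igkv4-63 stood at 7.37 and 13.4 TPM in Vav-Cre Pax5(fl/fl) (6.65 ± 0.48, limma, adjusted p = 2.32e-06), a ratio of 193 on 38 reads against 1, with an interval of 32.7 to 7841. Igkv13-78-1 stood at 6.49 and 10.5 TPM, at least 32.6-fold higher. Igkv4-73 stood at 12.3 and 11.7 TPM (6.03 ± 0.69, limma, adjusted p = 6.56e-05). The Igkv4 family held 9 of the 14 higher calls, and pseudogenes held 7.

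**Figure D2:**
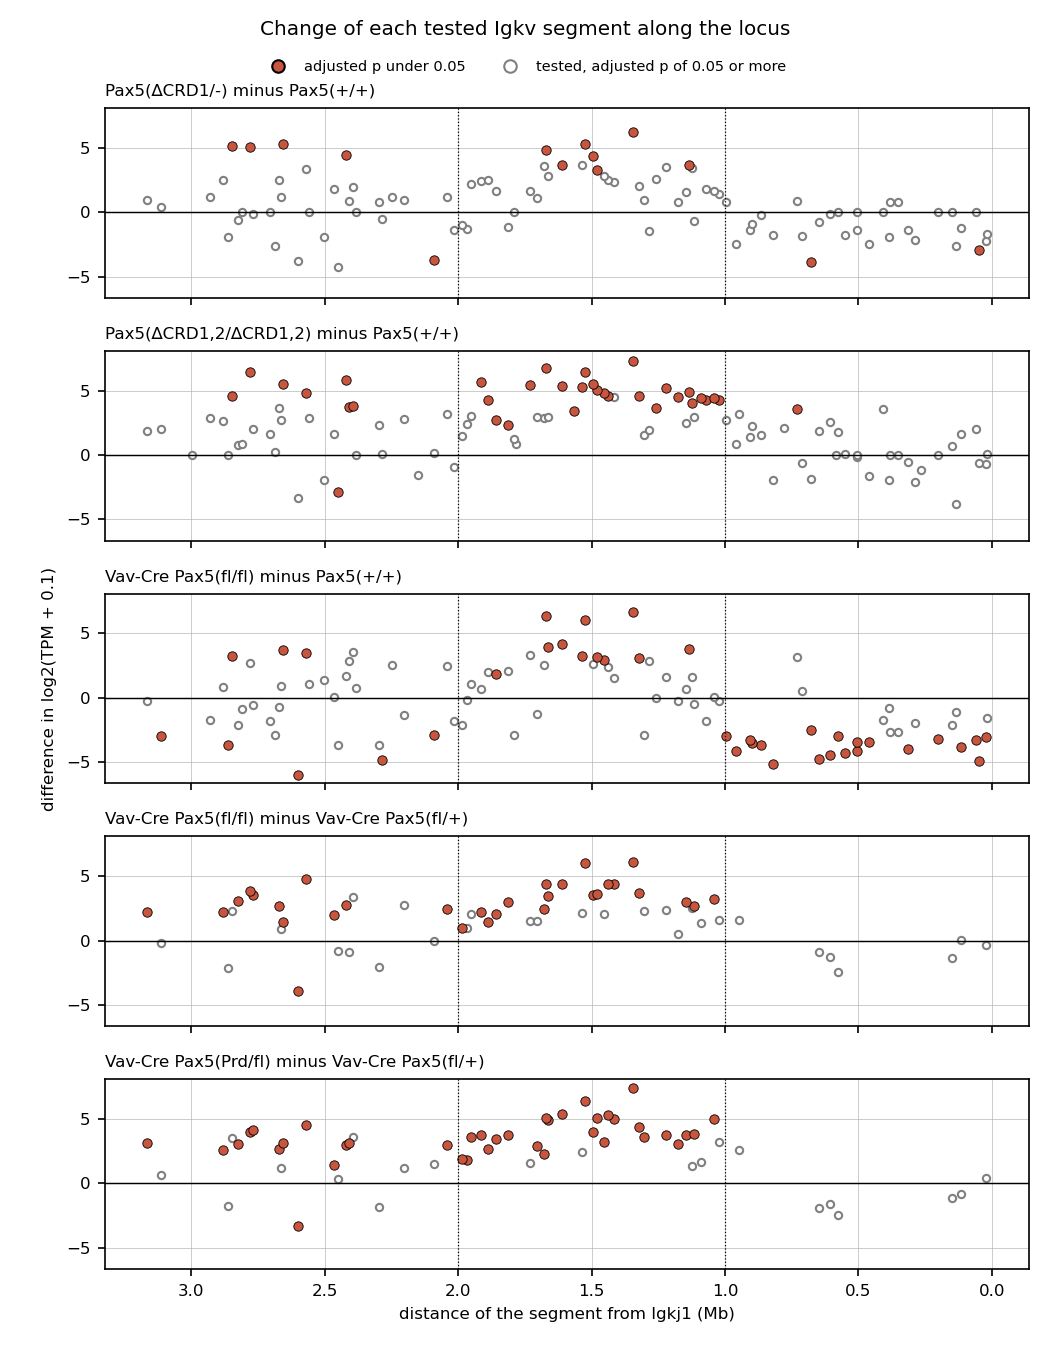
Difference in log2(TPM + 0.1) of each tested Igkv segment against its control (vertical axis) by distance from Igkj1 in Mb (horizontal axis, reversed), in 5 comparisons; filled points passed an adjusted p of 0.05, and dotted lines mark 1 and 2 Mb. The filled points above 0 gather at 1 to 2 Mb, for example 7 in Pax5(∆CRD1/-), 25 in Pax5(∆CRD1,2/∆CRD1,2) and 26 in Vav-Cre Pax5(Prd/fl), whereas the 20 filled points under 1 Mb in Vav-Cre Pax5(fl/fl) lie below 0.

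The Prd experiment also held Vav-Cre Pax5(fl/fl) progenitors, with Vav-Cre Pax5(fl/+) pro-B cells as controls. In Vav-Cre Pax5(fl/fl), 32 of 62 members tested passed, 31 higher and 1 lower, where 39.9% of all genes passed (20.8% higher, 19.1% lower), and the median was 2.22 against 0.00. At 1 to 2 Mb 19 of 31 were higher, and over 2 Mb 11 of 22 were higher and 1 lower. Only 7 members under 1 Mb could be tested, of which none passed (median -0.92, edgeR 0). Igkv4-63 was at 0 in both Vav-Cre Pax5(fl/+) samples and at 4.58 and 9.54 TPM in Vav-Cre Pax5(fl/fl), at least 24.0-fold higher. The pseudogene Igkv2-116 was likewise at 0 in both controls and at 2.52 and 2.74 TPM, at least 9.19-fold higher. Igkv9-124 rose from 2.90 and 2.38 TPM to 39.3 and 41.3 TPM (3.89 ± 0.21, limma, adjusted p = 6.11e-05).

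The paired domain alone, in Vav-Cre Pax5(Prd/fl), gave the most calls. Of 62 members, 41 passed, 40 higher and 1 lower, where 40.7% of all genes passed (24.1% higher, 16.6% lower), and the median was 3.08 against 0.08. At 1 to 2 Mb 26 of 31 members were higher, and in the Igkv4 family 22 of 26. Igkv1-88 rose from 12.3 and 14.7 TPM to 155 and 140.4 TPM (3.45 ± 0.19, limma, adjusted p = 5.93e-05). Igkv4-63 reached 22.6 and 12.8 TPM, at least 60.1-fold higher, and Igkv4-73 reached 30.99 and 10.5 TPM against 0.38 and 0 (6.37 ± 0.78, limma, adjusted p = 0.00127). Both comparisons share the Vav-Cre Pax5(fl/+) samples. Directly compared, Vav-Cre Pax5(Prd/fl) and Vav-Cre Pax5(fl/fl) differed in 1 member, Igkv1-88, which was higher with the Prd allele (1.34 ± 0.19, limma, adjusted p = 0.0253), where 1.97% of all genes passed (1.17% higher, 0.796% lower) and the median was 0.78 against 0.07. The call was lost in 5 of 11 alternative fits, among them those without Vav-Cre Pax5(Prd/fl) replicate 1 or either Vav-Cre Pax5(fl/fl) sample, with adjusted p up to 0.179 (limma).

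Calls were also set side by side between comparisons with different controls. Between Vav-Cre Pax5(fl/fl) against Pax5(+/+) and the same genotype in the Prd experiment, 10 members were higher in both, 71.4% of the 14 of the former and 32.3% of the 31 of the latter, where 31 of the 62 members tested in the latter were higher. Only 60 members were tested in both, among them 9 of the 25 lower calls of the former. Of these 9, Igkv1-117 was lower in both. Between Pax5(∆CRD1,2/∆CRD1,2) and Vav-Cre Pax5(Prd/fl), 22 higher calls were shared, 64.7% and 55% of the respective lists, among 62 members tested in both, of which 40 were higher in Vav-Cre Pax5(Prd/fl). The shared counts are thus a description, and no test of the overlap was made. The shared members of this pair of comparisons included Igkv1-88, Igkv9-124, Igkv4-63 and the pseudogene Igkv4-73.

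**Figure D3:**
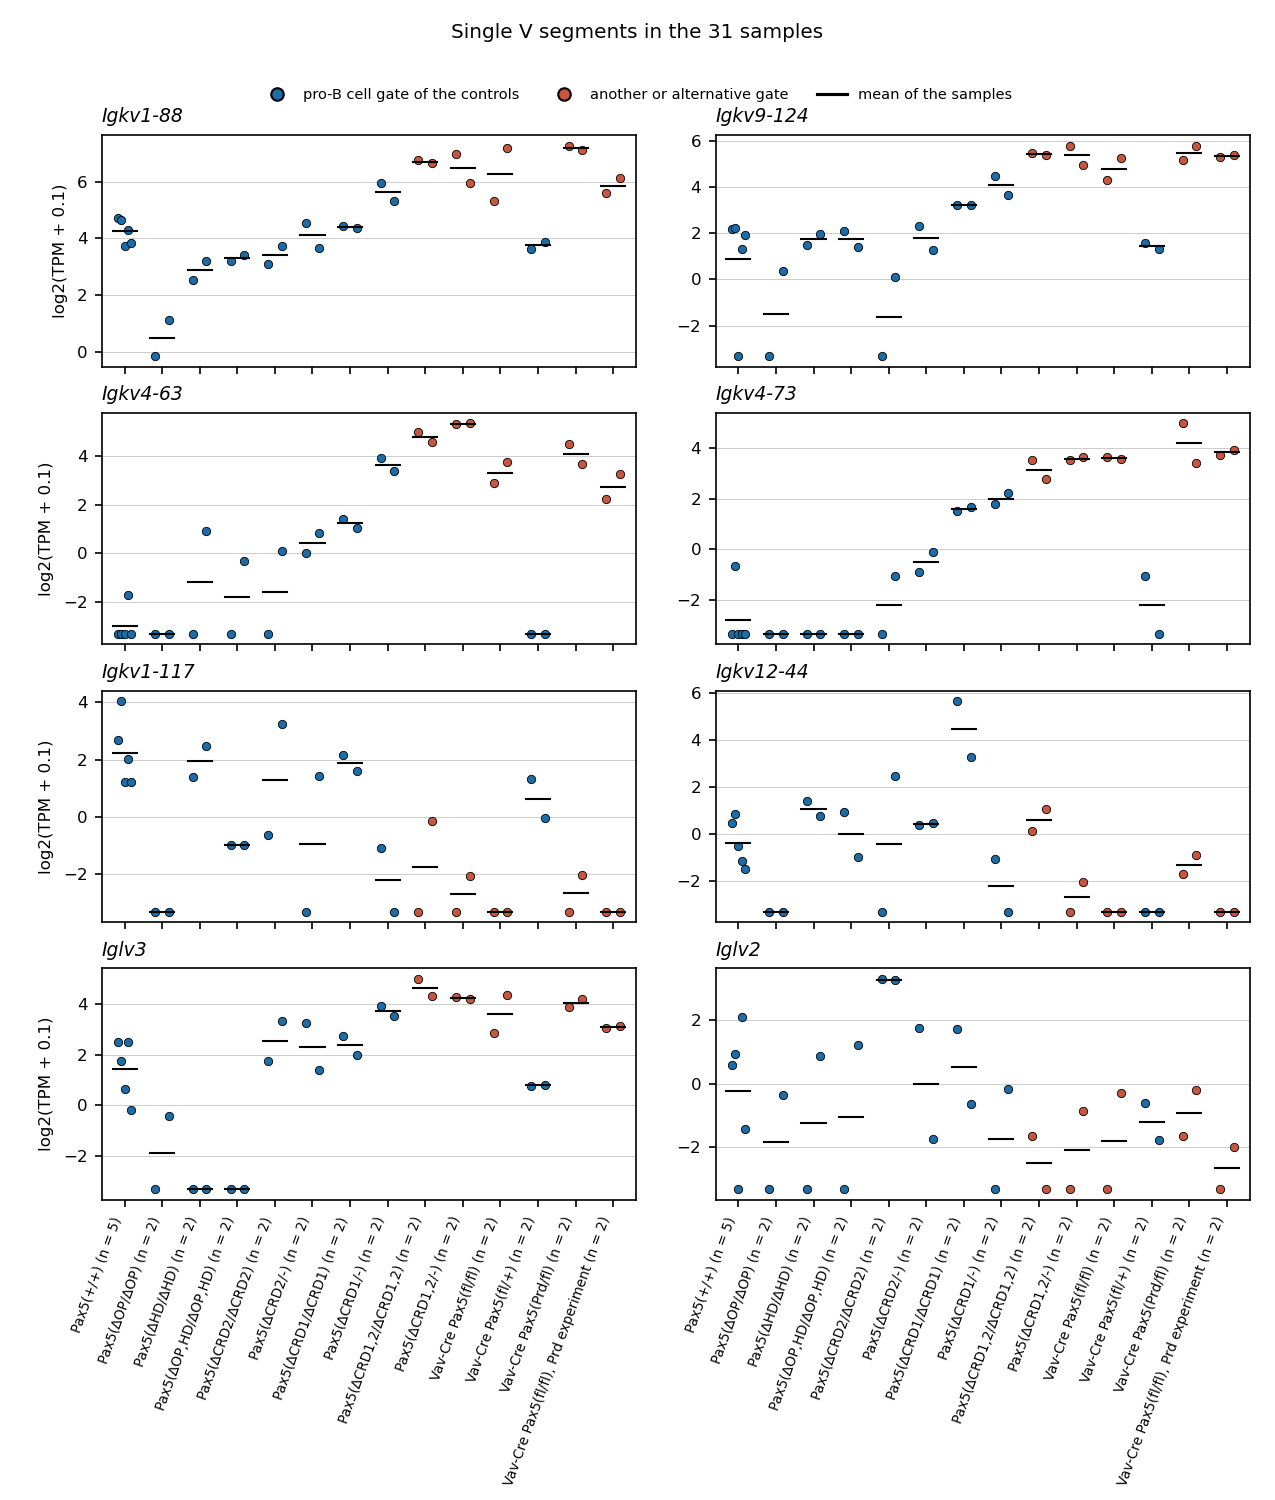
Expression of 8 light-chain V segments as log2(TPM + 0.1) in each of the 31 samples by group; points are samples. Igkv4-63 and Igkv4-73 lie highest in the groups lacking CRD1, both regulatory domains or Pax5, and Igkv1-117 falls to the floor in several of these groups. Both Igkv4 segments also have a few reads in Pax5(∆CRD2/-). Igkv4-63 has some in single samples of Pax5(∆HD/∆HD), Pax5(∆OP,HD/∆OP,HD) and Pax5(∆CRD2/∆CRD2). Igkv12-44 peaks in 1 Pax5(∆CRD1/∆CRD1) sample (50.3 TPM).

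Igkv1-117, a V gene over 2 Mb from Igkj1, was called lower in 5 comparisons. It was at 6.40, 16.4, 2.19, 3.99 and 2.22 TPM in Pax5(+/+) and at 0 in both samples of Vav-Cre Pax5(fl/fl) (-5.97 ± 1.25, limma, adjusted p = 0.00382), at least 8.59-fold lower on 0 against 142 reads. In Pax5(∆CRD1,2/-) it stood at 0 and 0.14 TPM, a read ratio of 0.0127 with an interval of 0.00032 to 0.072 (-4.31 ± 1.37, limma, adjusted p = 0.0477), a call that was lost in 10 of 13 alternative fits, edgeR among them. In the Prd experiment it fell from 2.37 and 0.87 TPM to 0 and 0 TPM in Vav-Cre Pax5(fl/fl), at least 7.999-fold lower, and to 0 and 0.14 TPM in Vav-Cre Pax5(Prd/fl). It was also at 0 in both Pax5(∆OP/∆OP) samples. Only 46.7% of the 50-base windows of its exons were unique on chromosomes 6 and 16, so reads that it shares with related segments were not counted.

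Deletion of the central domains gave few calls. In Pax5(∆OP/∆OP), 2 of 75 members passed, both lower, where 0.485% of all genes passed (0.292% higher, 0.192% lower), and the median was -1.23 against -0.03. They were Igkv1-88, at 0.80 and 2.08 TPM (-3.53 ± 0.44, limma, adjusted p = 0.0267), and Igkv1-117, with 0 against 34 reads and at least 10.7-fold lower (-4.94 ± 0.61, limma, adjusted p = 0.0267). Leaving out any of the 4 samples on which the comparison rested left 0 members past the threshold, and edgeR called 1, Igkv1-88. The summed TPM over all members was 27.5 and 21.4, below all 5 Pax5(+/+) samples, on 142 and 95 reads, and genes in these libraries carried reads in bunches (modal reads per gene 3 and 2, against 1 in most libraries). Both libraries of the genotype were affected, so no value without them can be given, and the part of this in the low sum was not tested.

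In Pax5(∆HD/∆HD) no member passed, with 15 at an unadjusted p below 0.05 and 0 by edgeR, where 0.639% of all genes passed (0.331% higher, 0.308% lower), and the median was 0.84 against 0.00. In Pax5(∆OP,HD/∆OP,HD) no member passed either, with 14 at an unadjusted p below 0.05 and 0 by edgeR, where 1.22% of all genes passed (0.739% higher, 0.485% lower), and the median was -0.15 against -0.01. Igkv14-126 led both samples of this genotype at 12.2 and 20.2 TPM, but Pax5(+/+) spanned 0 to 17.4 TPM, so that the groups overlapped.

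Deletion of CRD2 alone gave few calls. In Pax5(∆CRD2/-), 1 of 100 members passed, Igkv4-63, at 0.90 and 1.69 TPM (2.95 ± 0.52, limma, adjusted p = 0.0339), where 0.513% of all genes passed (0.308% higher, 0.205% lower) and the median was 0.70 against 0.04. Its 12 reads against 1 gave a ratio of 27.0 with an interval of 3.99 to 1153, and edgeR did not call it. Without replicate 2, whose reads were bunched (modal 2 reads per gene), 0 members passed. In Pax5(∆CRD2/∆CRD2) no member of 108 passed, where 0.0447% of all genes passed (0.0372% higher, 0.00745% lower). There 15 members had an unadjusted p below 0.05, edgeR called 0, and the median was 0.87 against 0.02. Its samples differed widely, with 119 and 441 TPM over all members. Replicate 1 carried a modal 9 reads per gene, and 0 members passed without it, while replicate 2 had the highest Ms4a1 (62.5 TPM, against 2.14 to 30.5 TPM in Pax5(+/+)), which encodes CD20, a marker of later B cells. Their part in the result was not tested.

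Of the 3 lambda segments, Iglv3 was called in 3 comparisons, Iglv1 in 1 and Iglv2 in none. Iglv3 was at 5.65, 3.27, 1.48, 5.53 and 0.79 TPM in Pax5(+/+) and at 31.8 and 19.9 TPM in Pax5(∆CRD1,2/∆CRD1,2), without overlap (3.08 ± 0.89, limma, adjusted p = 0.0337). Without Pax5(+/+) replicate 3 this difference was 2.17 and did not pass (limma, adjusted p = 0.213), and it did not pass without either mutant sample. In the Prd experiment it rose from 1.61 and 1.65 TPM to 8.18 and 8.81 TPM in Vav-Cre Pax5(fl/fl) (2.31 ± 0.17, limma, adjusted p = 0.000172) and to 14.6 and 18.1 TPM in Vav-Cre Pax5(Prd/fl) (3.24 ± 0.17, adjusted p = 5.25e-05). It did not pass in Pax5(∆CRD1,2/-), at 19.2 and 18.2 TPM (2.66 ± 0.90, limma, adjusted p = 0.0608), or in Vav-Cre Pax5(fl/fl) against Pax5(+/+), at 7.15 and 20.6 TPM (2.25 ± 0.82, adjusted p = 0.059).

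Iglv1 was at 8.59, 5.64, 8.86, 15.8 and 2.55 TPM in Pax5(+/+) and passed only in Vav-Cre Pax5(Prd/fl) against Vav-Cre Pax5(fl/+), at 19.9 and 21.6 against 5.24 and 1.97 TPM (2.65 ± 0.56, limma, adjusted p = 0.0105). Without Vav-Cre Pax5(fl/+) replicate 2 it was 1.97 and did not pass (limma, adjusted p = 0.0783), and it did not pass without Vav-Cre Pax5(Prd/fl) replicate 2. This gene overlaps 2010309G21Rik in the annotation. Iglv2 was at 0 to 0.80 TPM in the samples of Pax5(∆CRD1/-), both CRD1,2 genotypes, both Vav-Cre Pax5(fl/fl) groups and Vav-Cre Pax5(Prd/fl), within the Pax5(+/+) range of 0 to 4.22 TPM, and at 9.72 and 9.50 TPM in Pax5(∆CRD2/∆CRD2).

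The lambda constant genes were read together with these segments. Iglc3 was at 13.3 to 31.8 TPM in Pax5(+/+) and at 259 and 445 TPM in Vav-Cre Pax5(fl/fl) (3.85, limma, adjusted p = 2.92e-05), and it was also higher in Pax5(∆CRD1,2/-) by 3.90, in Pax5(∆CRD1,2/∆CRD1,2) by 3.34, and in the Prd experiment by 5.16 without Pax5 and 6.06 with the Prd allele. Iglc2, by contrast, was lower in Vav-Cre Pax5(fl/fl) by both comparisons (-3.49 and -3.06) and in Vav-Cre Pax5(Prd/fl) (-2.71). The joining segment Iglj3 was at 0 in both Vav-Cre Pax5(fl/+) samples, at 25.5 and 59.4 TPM in Vav-Cre Pax5(fl/fl) of that experiment and at 46.5 and 93.2 TPM in Vav-Cre Pax5(Prd/fl), and passed in both comparisons (limma, adjusted p = 6.11e-05 and 4.54e-05). Iglc3 and Iglj3 were thus higher in the comparisons of the Prd experiment in which Iglv3 was higher, while Iglc2 was lower. The Iglc genes are closely related, and reads that fit several of them were not counted.

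The kappa constant gene did not follow the Igkv segments in every group. Igkc, which is part of joined kappa transcripts and of germline transcripts from the J region, was at 915, 1171, 159, 559 and 517 TPM in Pax5(+/+). It passed in 2 comparisons, Vav-Cre Pax5(fl/fl) and Vav-Cre Pax5(Prd/fl) against Vav-Cre Pax5(fl/+), by 1.06 (limma, adjusted p = 0.0156) and 1.45 (adjusted p = 0.00462). The ratio of the summed Igkv TPM to the Igkc TPM was 0.188 to 0.286 in Pax5(+/+). It was 1.07 and 0.633 in Pax5(∆CRD1/-), 0.458 and 0.513 in Pax5(∆CRD1,2/∆CRD1,2), 0.921 and 0.510 in Pax5(∆CRD1,2/-), and 0.634 and 0.418 in Vav-Cre Pax5(fl/fl). All 8 samples lay above all 5 Pax5(+/+) samples. Igkc itself was at 183 and 252 TPM in Pax5(∆CRD1/-), within the range of Pax5(+/+). No test was made on this ratio.

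**Figure D4:**
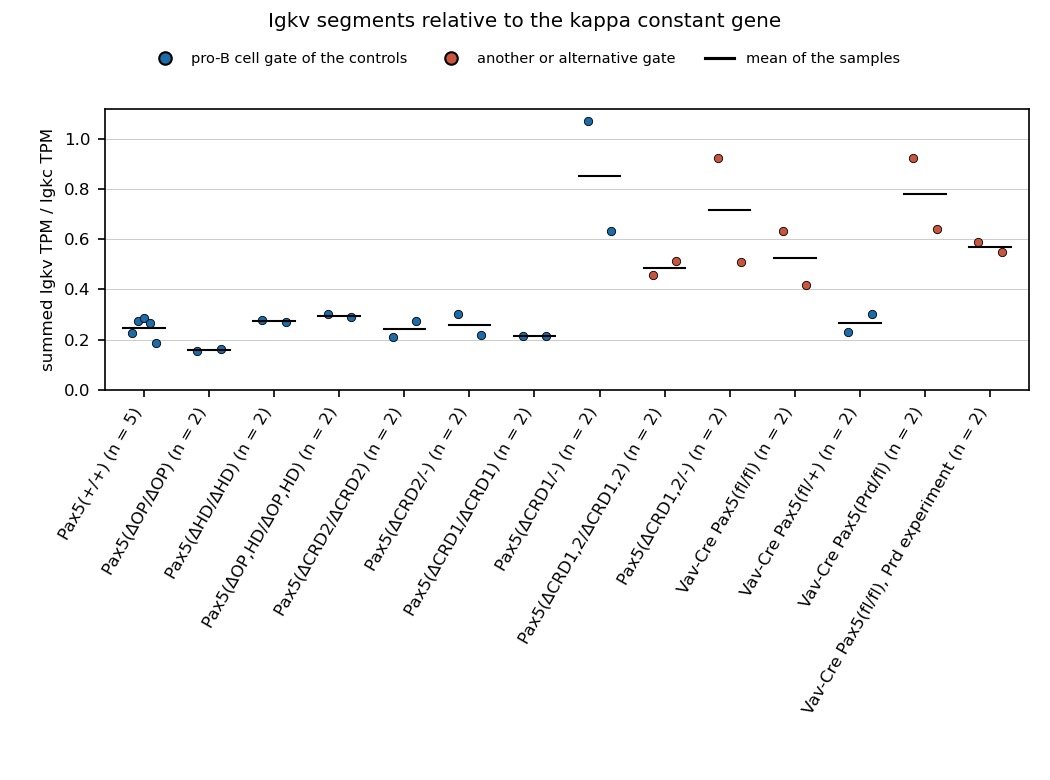
Ratio of summed Igkv TPM to Igkc TPM in each of the 31 samples by group; points are samples, bars are means, blue points were sorted by the pro-B cell gate of the controls and red points by another or the alternative gate. Pax5(+/+) lies at 0.188 to 0.286, while Pax5(∆CRD1/-) (0.633 and 1.07) and the red groups (0.418 and above) lie higher.

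Of the joining segments, Igkj5 was higher in Pax5(∆CRD1,2/∆CRD1,2) (2.11, limma, adjusted p = 0.0143) and in Vav-Cre Pax5(Prd/fl) (2.55), where Igkj1 (1.73) and Igkj2 (1.82) were also higher. Igkj2 was higher by 0.63 in Vav-Cre Pax5(fl/fl) of the Prd experiment. In the other comparisons with Pax5(+/+) or Vav-Cre Pax5(fl/+), no Igkj segment measured passed.

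The octamer was common in the promoters of the members. In windows from 250 bases before to 50 after the annotated start, searched on both strands for ATTTGCAT, 97 of 163 members (59.5%) held it, all on the strand of the gene and at a median of 92 bases before the start. In a RefSeq promoter table with windows of the same width, which held no Igkv or Iglv entries, 570 of 32851 promoters (1.74%) held it. The annotated starts of the members are mostly translation starts, so the windows of the 2 sets may be placed differently. It was found in 47 of the 53 members that were higher in any comparison (88.7%), in 15 of 26 that were only lower (57.7%), in 20 of 32 that exceeded 1 TPM and were never called (62.5%), and in 15 of 52 that stayed at or below 1 TPM (28.8%). These sets differ in their pseudogenes. Among V genes alone, the octamer was in 39 of 41, 15 of 26, 18 of 27 and 4 of 9 members, in the same order. The consensus heptamer CACAGTG stood at the end of 37 of 53 (69.8%) of the higher members and of 22 of 26 (84.6%) of the only lower members. It was found in 29 of 32 (90.6%) of the never called members and in 18 of 52 (34.6%) of those at or below 1 TPM. Among V genes, 31 of 41 (75.6%) of the higher members held it. These are counts of letters, and members of one family share sequence.

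Genes that act on the light-chain loci were measured in the same fits. Rag2 was lower in Vav-Cre Pax5(fl/fl) (-1.73 against Pax5(+/+) and -1.33 against Vav-Cre Pax5(fl/+)) and in Vav-Cre Pax5(Prd/fl) (-0.80), and Rag1 was lower in Pax5(∆CRD1,2/-) (-0.93), Pax5(∆CRD1,2/∆CRD1,2) (-1.02) and both mutant groups of the Prd experiment (-0.63 and -0.54). Irf4, Ikzf3, Tcf3 and Spib, which encode transcription factors of B cells, were lower in Pax5(∆CRD1/-), both CRD1,2 genotypes, both Vav-Cre Pax5(fl/fl) comparisons and Vav-Cre Pax5(Prd/fl). The decrease of Ikzf3 (Aiolos) ranged from -3.40 to -4.77 over these 6 comparisons. Pou2f2, which encodes Oct2, was higher in the same 6, by 0.65 to 1.37, and Pou2af1, its coactivator gene, was lower in 5 of them, all but Pax5(∆CRD1/-). In Pax5(∆CRD1/∆CRD1), Irf4 (-1.25), Ikzf3 (-2.02), Tcf3 (-0.997) and Spib (-0.83) were lower as well.

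The markers of other cell types moved with these groups in part. Jchain, typical of plasma cells, was at 355 and 490 TPM in Vav-Cre Pax5(fl/fl), at 341 and 368 TPM in this genotype of the Prd experiment and at 0.23 to 3.81 TPM in Pax5(+/+). The 9 plasma cell markers summed to 2019 to 2041 TPM in Vav-Cre Pax5(fl/fl), within the Pax5(+/+) range of 1520 to 3231 TPM. Most of this sum was Mzb1, with a mean of 1996 TPM in Pax5(+/+) and 1832 TPM in Vav-Cre Pax5(fl/fl) of the Prd experiment. The sum therefore says little about the other markers of the list. Several of these had lower means in Vav-Cre Pax5(fl/fl) of the Prd experiment than in Pax5(+/+), which is not its control there. They were Sdc1 (14.7 against 26.6 TPM), Tent5c (4.17 against 24.5 TPM), Fkbp11 (1.63 against 4.65 TPM) and Prdm1 (0.68 against 3.11 TPM). Derl3 (8.68 against 7.47 TPM) and Xbp1 (91.4 against 93.1 TPM) differed little. The 4 plasmacytoid dendritic cell markers summed to 653 to 1046 TPM in Vav-Cre Pax5(fl/fl) against 134 to 217 TPM, and their sum in Pax5(∆CRD1/-), 132 to 135 TPM, was not above the controls. Of 10 markers of pre-B or later B cells 9 were present, and they summed to 40.5 to 41.5 TPM in Pax5(∆CRD1/-), below the Pax5(+/+) range of 67.6 to 160 TPM, and to 95.4 to 156 TPM in Vav-Cre Pax5(fl/fl), within it. Among them, Cd2 was at 0 in both Pax5(∆CRD1/-) samples and Ms4a1 was at 0.40 and 0.69 TPM. Without Pax5, members of this list differed in opposite directions. Il2ra, which the study describes as a gene repressed by Pax5, had a mean of 33.0 TPM in Vav-Cre Pax5(fl/fl) of the Prd experiment. Pax5(+/+), which is not the control of that experiment, had a mean of 6.49 TPM. Cd2 had 0.12 against 4.82 TPM and Ms4a1 0.05 against 13.2 TPM. The part of these cell types in the light-chain results was not tested.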

How the data were processed

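Poly(A) RNA of 31 sorted bone marrow samples was used, of the 71 samples in the series; the other 40 are not used here. According to the study's methods, the authors trimmed reads to 50 bases, aligned them to GRCm38 with STAR, kept unique alignments, counted reads per gene and converted the counts to TPM, which is the deposited unit. Sense and antisense counting is not given in the sources used here. The submitters' processing notes name STAR 2.4.2a. TPM were turned back into whole reads through the gene lengths, and every value tested came out whole within 0.001 reads. One sample's count table was deposited beside its TPM and gave these lengths. Gene names were missing from 8 tables and were taken from the row order of the 23 named tables, which was the same in each; for antigen receptor rows the lengths equalled those of GENCODE M21 in 240 of 240. Levels are TPM, so that a sum over members is per length.

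Tests used limma 3.58.1 in R 4.3.3 on log2(TPM + 0.1), with a trend in the variance, for every gene whose highest value in the fit was over 1 TPM, and Benjamini-Hochberg adjustment over all genes of that fit (12941 to 13637). There were 4 fits: the central domains with Pax5(+/+), the hemizygous CRD genotypes and Vav-Cre Pax5(fl/fl), the homozygous CRD genotypes, and the Prd experiment. Fits with both read lengths carried read length as a term. edgeR 4.0.16 on the recovered reads, a pseudocount of 1, no filter, no trend, leaving out each sample and replicate blocks were alternatives. Leaving out libraries with bunched reads and crossed blocks were added after seeing the data. The counts and tests were checked on simulated data. Intervals and floors (3 reads over a group) cover counting error only. Read ratios and bounds against Pax5(+/+) pool its 5 samples, except for the central domains, where replicates 3 and 4 were used. Members and gene lists were chosen with earlier results of these data known. Named genes were the lambda segments, the 8 Igkv members with the highest mean, up to 4 members with the largest called difference and no overlap in each comparison, any member leading a sample, and fixed context genes; Igkv3-4, Igkv6-32, Igkv8-34, Igkv18-36, Igkv1-110 and Igkv4-74 were named after their values were seen. Nothing states that replicates came from separate mice, so p-values measure the spread between these samples, which may be technical. Reads over the whole Pax5 gene were higher in Vav-Cre Pax5(fl/fl) (1609 and 1697 TPM) than in Pax5(+/+) (342 to 524 TPM), so they cannot check the deletion. A fixed marker and the list that holds it are not reported here.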

Additional observations from a re-analysis of the deposited data

Results flagged for a closer look

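In the 5 Pax5(+/+) samples, 30 quantities were searched for a sample far from the others, and 4 had such a sample. Where all other samples are at 0, a single read already gives such a flag. The count of 4 can therefore not be set against a chance rate. Igkv14-118-2 was at 0.508 TPM in replicate 1 and at 0 in the other samples. Igkv2-116 was at 1.06 TPM in replicate 2, with 0.238 TPM in replicate 1 and 0 in the others. Igkv4-63 was at 0.199 TPM in replicate 4 and at 0 in the others. Igkv4-73 was at 0.535 TPM in replicate 2 and at 0 in the others. Each of these values rests on 1 to 4 reads, and all lie below the samples of Pax5(∆CRD1,2/-), Pax5(∆CRD1,2/∆CRD1,2) and both Vav-Cre Pax5(fl/fl) groups.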

How the results depend on the processing

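Counts of called members are given as main value and alternative. For Pax5(∆OP/∆OP), 2 became 1 with a pseudocount of 1, without the filter, without the variance trend and by edgeR, and 0 without any sample. For Pax5(∆HD/∆HD), 0 became 1 without the filter and 1 without the trend. For Pax5(∆OP,HD/∆OP,HD), 0 became 1 with the larger pseudocount, 2 without the filter and 2 without the trend. For Pax5(∆CRD2/-), 1 became 3 without the trend, 0 by edgeR, 0 without the library with bunched reads (chosen after seeing the data) and 0 to 3 without a sample. For Pax5(∆CRD1/-), 14 became 8 by edgeR and 7 to 16 without a sample (8 and 7 without mutant replicates 1 and 2). For Pax5(∆CRD1,2/-), 26 became 17 to 28 (17 without mutant replicate 1 or Pax5(+/+) replicate 3). For Vav-Cre Pax5(fl/fl) against Pax5(+/+), 39 became 14 by edgeR and 24 to 42 without a sample (24 without either mutant replicate, 25 without Pax5(+/+) replicate 2). For Pax5(∆CRD1,2/-) against Pax5(∆CRD1/-), 0 became 4 with the larger pseudocount, 1 without the trend and 1 by edgeR, and 0 in each fit without a sample. For Pax5(∆CRD2/∆CRD2), 0 stayed 0 in every alternative. For Pax5(∆CRD1/∆CRD1), 6 became 1 to 5 without a sample (1 and 2 without mutant replicates, 3 without Pax5(+/+) replicate 2 or 5). For Pax5(∆CRD1,2/∆CRD1,2), 35 became 13 to 36 (13 without either mutant replicate, 16 without Pax5(+/+) replicate 3). In the Prd experiment, 32 for Vav-Cre Pax5(fl/fl) became 20 to 24 (20 without its replicate 2), 41 for Vav-Cre Pax5(Prd/fl) became 33 to 36 and, without the filter, 52, and 1 between the mutants became 4 with the larger pseudocount, 0 without the filter, 0 without the trend and 0 to 3 without a sample (0 without Prd replicate 1 or either Vav-Cre Pax5(fl/fl) replicate, 3 without Prd replicate 2). The causes were not tested. Fits without 1 of 2 samples assume that the lone sample varies like the other groups. Of 1053 alternative values of 87 named differences, 889 kept direction and threshold, 164 lost the threshold and 0 reversed. Igkv4-63 and Igkv4-73 kept every call in Pax5(∆CRD1/-), both CRD1,2 genotypes, both Vav-Cre Pax5(fl/fl) comparisons and Vav-Cre Pax5(Prd/fl), whereas Igkv4-63 in Pax5(∆CRD2/-) lost it in 9 of 14.

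A replicate block gave 38 calls for Vav-Cre Pax5(fl/fl) against Pax5(+/+), 7 for Pax5(∆CRD1/∆CRD1), 1 for Pax5(∆CRD1,2/-) against Pax5(∆CRD1/-), and 37, 45 and 1 in the Prd experiment in the order above. Same-numbered samples shared only a number (correlations of their deviations -0.116 to 0.089). Crossed blocks, added after seeing the data, gave 34 calls for Vav-Cre Pax5(fl/fl) and 1 between the mutants. No paired analysis was possible for the central-domain genotypes and the 100-nt CRD genotypes against Pax5(+/+) because the Pax5(+/+) samples of that read length share no numbers with them. The median summed TPM of 178 became 170.4 with V genes alone and 179 after rescaling. With 95 to 2880 reads over 163 members, single segments at a few reads limit every count.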
